A study of Danio rerio with 61 samples.

Results

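Collagen genes were followed through injury and repair of the zebrafish ventricle. They were taken as every entry of the deposited normalised expression table whose symbol begins with col, a type number, the letter a and a chain number, which selected 40 of 16890 genes. Of these, 12 encode fibrillar chains (types I, II, V, XI and XXVII), 7 encode chains of basement membranes (types IV, XV and XVIII), and 21 encode other types. Another 15 collagen genes of the unnormalised count table, none with more than 25 counts over the whole series, were not in the normalised table and were not analysed here.

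Single ventricles of 7 zebrafish strains, all wild-type, were profiled by sequencing of mRNA 3′ ends. They were WIK, TU, TL, SAT, NA, KCL and AB. Adult fish were either uninjured or sampled 1 or 7 days after a cryo-injury (1 dpci and 7 dpci), in which the tip of the ventricle was frozen with a cold copper probe. Of the 21 groups of strain and stage, 19 held 3 fish and those of SAT and TU at 1 dpci held 2, so that there were 21 uninjured fish, 19 at 1 dpci and 21 at 7 dpci. No transgene or drug was used in these groups, and a whole ventricle holds both the wound and the remote muscle.

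Collagens are trimers of chains wound into a triple helix. Types I, V and XI assemble into banded fibrils, type IV forms the network of basement membranes, and types VI and XII lie between or on the fibrils. After cryo-injury the zebrafish heart forms a collagen-rich scar that is later removed, and fibroblasts and epicardium-derived cells are its main known source of fibrillar collagen.

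Libraries held 2943684 to 5538019 counts, of which 44.2% to 77.7% came from the mitochondrial genome. Levels are given as CPM, each gene's count relative to the library's counts of the 16890 genes tested, mitochondrial ones included, after TMM scaling. Since each transcript is read at its 3′ end, a CPM value does not grow with gene length. In 6 libraries the sample title named another stage than the label of days, and the stage was taken from the title. Over 16890 genes, 15 of the 21 uninjured libraries correlated best with their own strain at 7 dpci, each value taken as its difference from the mean of its stage. The 3 uninjured libraries labelled NA correlated best with TU and the 3 labelled TU with NA. Tests of the mean over strains and of differences among strains were therefore also run without NA and TU. A mean over all 7 strains does not depend on which of these uninjured groups carries which label. In 3 libraries, AB fish 24 at 7 dpci, KCL fish 63 at 1 dpci and TL fish 42 at 1 dpci, the skin keratin krt5 stood at 177 to 212 CPM, whereas the highest of the other 58 libraries was 23.3 CPM. Cardiomyocyte markers were abundant in every library, with a summed level of at least 9549 CPM.

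The level of collagen mRNA was carried by few genes. Over the 61 libraries, 11 members averaged 10 CPM or more and 18 averaged less than 1 CPM. The most abundant were col1a2 (mean 120 CPM), col5a1 (108 CPM), col1a1b (100 CPM) and col1a1a (83.7 CPM), which encode the chains of type I collagen, the bulk collagen of fibrils, and the α1 chain of type V, which starts fibril assembly. Together these 4 genes made up a median of 54.8% of all collagen counts in uninjured fish, 62.6% at 1 dpci and 66.3% at 7 dpci. They were followed by the type VI genes col6a2, col6a3 (ENSDARG00000077139) and col6a1 at 35.2, 34.1 and 27.4 CPM, then by col12a1a at 27 CPM. In the basement membrane class, col4a2 (24 CPM), col4a1 (20.7 CPM) and col18a1a (3.47 CPM) were the most abundant.

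In GRCz11 coordinates, col1a1a lies on chromosome 3 (23221047 to 23239458, plus strand), col1a1b on chromosome 12 (3095699 to 3133483, minus strand), col1a2 on chromosome 19 (40983221 to 41002980, plus strand) and col5a1 on chromosome 21 (6556635 to 6725780, plus strand). The gene col1a2 overlaps si:ch211-120e1.7 on the opposite strand, and the 2 genes named col6a3 overlap each other on the same strand, so their counts are uncertain at that point. Reads from near-identical stretches of the paired genes col1a1a and col1a1b could also have been divided between them. Some members are neighbours. col4a1 and col4a2 stand head to head 90.9 kb apart on chromosome 9, col4a6 and col4a5 stand head to head 0.752 kb apart on chromosome 7, and col6a2 and col6a1 lie 36.2 kb apart on chromosome 11.

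The first comparison asked which collagen genes had changed a day after injury. At 1 dpci, 6 of the 40 collagen genes were higher than in uninjured ventricles and 1 was lower, at more than 2-fold and an adjusted p below 0.05. Over all genes tested, 8.53% were higher and 2.36% lower, and of the collagen genes 15% were higher. The genes that rose encode types XII, V and XI, 4 of them fibrillar, and the gene that fell was col18a1b. Tests are edgeR quasi-likelihood tests of the mean of the 7 within-strain differences, with Benjamini-Hochberg adjustment over 16890 genes.

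The type XII genes, whose products sit on the surface of type I fibrils, rose most. col12a1a (chromosome 17, 49785495 to 49978986, minus strand) ran from 0 to 9.45 CPM with a median of 5.46 in uninjured fish and from 4.24 to 49.4 CPM with a median of 26.6 at 1 dpci. All but 1 of the 19 fish at 1 dpci were above every uninjured fish, and the log2 fold change was 2.72 (SE 0.239, edgeR adjusted p 1.2e-13). Its paralog col12a1b (chromosome 20, 49451764 to 49681850, minus strand) ran from 0 to 4.21 CPM (median 0.686) in uninjured fish and from 1.06 to 21.4 CPM (median 7.19) at 1 dpci, a log2 fold change of 3.38 (SE 0.315, adjusted p 8.34e-13). In 14 of 19 fish at 1 dpci it was above every uninjured fish.

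The type V genes followed. col5a1 ran from 24.2 to 64.7 CPM (median 38.8) in uninjured fish and from 48.9 to 210 CPM (median 89.5) at 1 dpci, and 15 of 19 fish exceeded all uninjured fish. Its log2 fold change was 1.29 (SE 0.128, adjusted p 6.4e-12). col5a2a and col5a3a, which encode the partner chains of type V, rose by 1.02 (SE 0.144, adjusted p 7.81e-08) and 1.57 (SE 0.311, adjusted p 6.22e-05) on the log2 scale. The type I genes moved less. col1a1a, col1a1b and col1a2 were higher by 0.84, 0.67 and 0.70 on the log2 scale, with adjusted p of 4.61e-05, 6.21e-05 and 0.000132, and thus under the 2-fold limit. Without that limit, 10 collagen genes were higher at 1 dpci and 1 was lower, where all genes gave 16.2% and 12.1%. col4a2 was higher by 0.59 (adjusted p 0.0025), also under that limit.

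col11a1b encodes a type XI chain, which takes part in fibril nucleation and is best known from cartilage. It had no counts in 17 of 21 uninjured fish and at most 1.02 CPM in the others, whereas 12 of 19 fish at 1 dpci had counts, at up to 2.45 CPM (adjusted p 0.0141). The pooled level was 0.128 CPM (9 counts) in uninjured fish and 0.639 CPM (62 counts) at 1 dpci. This call was lost when KCL fish 64, NA fish 29 or SAT fish 37 at 1 dpci was left out.

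col18a1b (chromosome 6, 20678890 to 20707846, minus strand) encodes a type XVIII chain, a basement membrane collagen whose C-terminal fragment is endostatin. It ran from 0 to 5.63 CPM with a median of 1.53 in uninjured fish and from 0 to 1.45 CPM with a median of 0.266 at 1 dpci, so the ranges overlapped. The log2 fold change was -2.19 (SE 0.326, adjusted p 2.55e-07). Its paralog col18a1a did not pass the test, with medians of 2.58 and 3.71 CPM. With 1 RUVg factor of unwanted variation in the model, 1 collagen gene was called higher at 1 dpci and none lower. The log2 fold changes with that factor were 2.71 for col12a1b (adjusted p 0.0671), 1.99 for col12a1a (0.127), 2.18 for col5a3a (0.358), 1.19 for col5a2a (0.21) and -1.25 for col18a1b (0.745). Of the variance of that factor, 77% lay between stages.

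**Figure D1:**
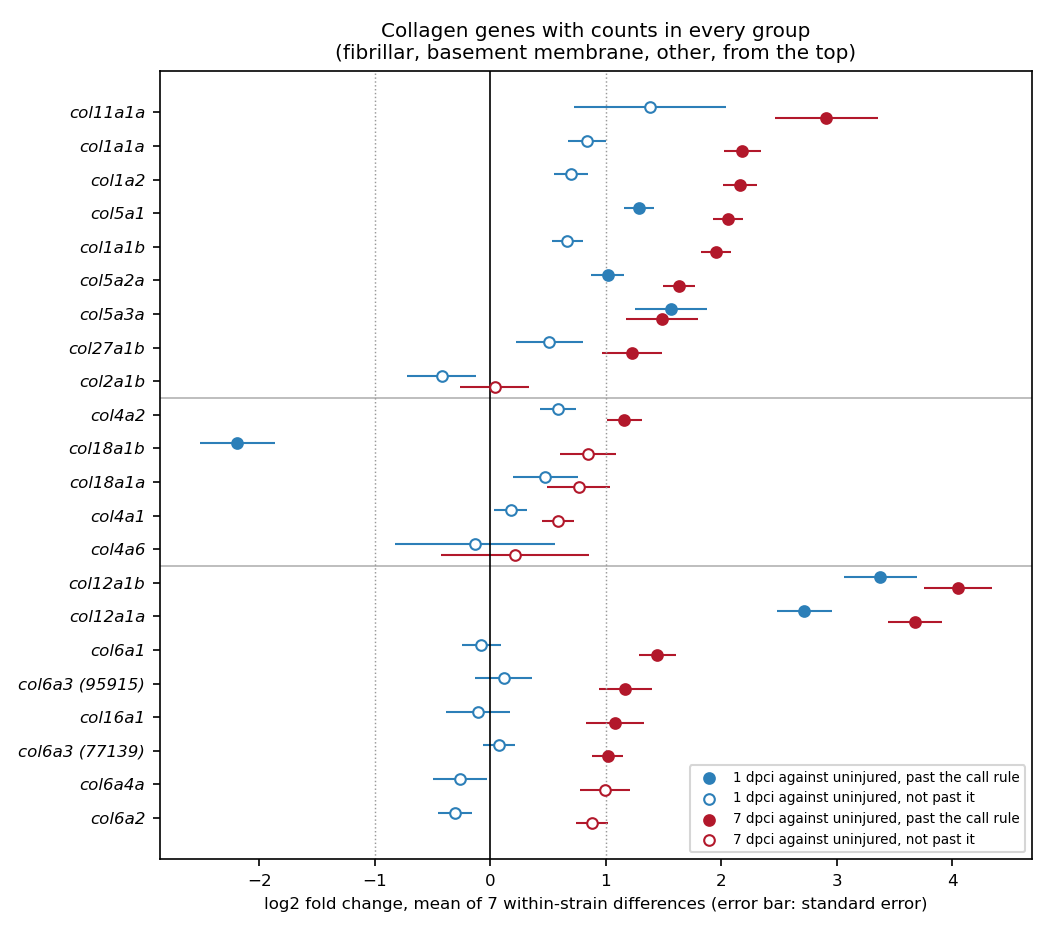
Mean log2 fold change over the 7 strains (x axis) with its standard error (bars) for the 22 collagen genes with counts in every group, at 1 dpci and 7 dpci against uninjured fish; filled points passed more than 2-fold and an adjusted p below 0.05. col12a1a and col12a1b lay at 2.72 and 3.38 at 1 dpci and at 3.68 and 4.05 at 7 dpci, and col18a1b was the gene below zero and called at 1 dpci.

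At 7 dpci, 18 of the 40 collagen genes were higher than in uninjured ventricles and none was lower, whereas 2.58% of all genes tested were higher and 0.13% lower. They comprised 9 of 12 fibrillar, 1 of 7 basement membrane and 8 of 21 other members. Among the other members, col10a1a passed the filter of at least 1 CPM in at least 1 library only through fish at 7 dpci. It had no count in uninjured fish and 1 count at 1 dpci, so its call adds no support to these counts. Without the fold limit, 22 collagen genes were higher and none lower, where all genes gave 4.46% and 1.71%. With each library left out in turn, the count of 18 ran from 16 to 20.

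All the genes of type I collagen rose at 7 dpci. col1a1a ran from 8.36 to 53.6 CPM (median 31.4) in uninjured fish, from 20.7 to 104.8 CPM (median 61.2) at 1 dpci and from 39.7 to 379 CPM (median 141) at 7 dpci. col1a1b ran from 18.8 to 64 CPM (median 42.9), from 36.2 to 114 CPM (median 72.9) and from 60.1 to 400 CPM (median 171) at these stages. col1a2 ran from 21.5 to 81.5 CPM (median 46.3), from 34.6 to 163 CPM (median 80.6) and from 77.5 to 500 CPM (median 188). For each of these genes, 20 of 21 fish at 7 dpci were above every uninjured fish, and in each of the 7 strains all fish at 7 dpci were above all uninjured fish of that strain. The log2 fold changes were 2.18 for col1a1a (SE 0.163, adjusted p 1.74e-15), 1.96 for col1a1b (SE 0.132, adjusted p 4.77e-17) and 2.17 for col1a2 (SE 0.146, adjusted p 4.7e-17).

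**Figure D2:**
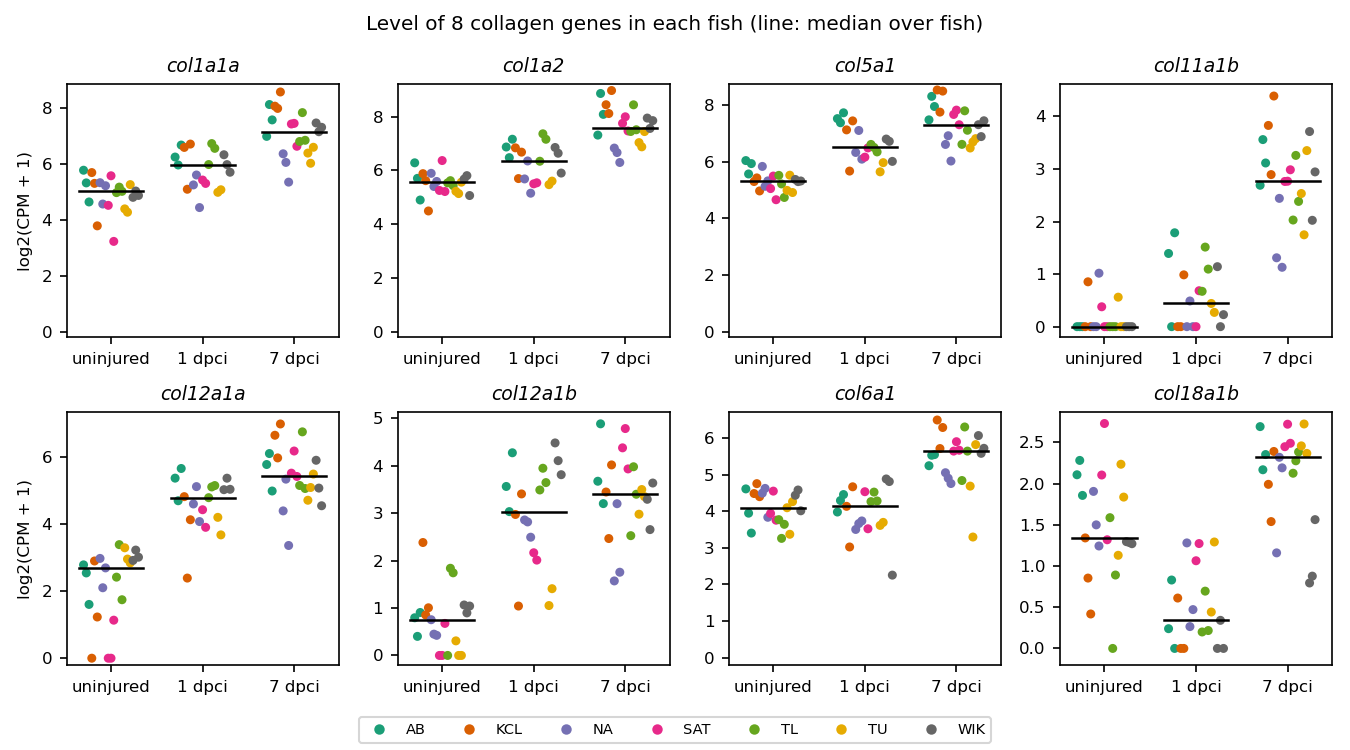
Level of 8 collagen genes as log2(CPM + 1) (y axis) in each of the 61 fish by stage (x axis), with 1 point per fish and a line at the stage median. col1a1a, col1a2 and col5a1 rose in steps from uninjured to 1 and 7 dpci, col12a1a and col12a1b had most of their rise by 1 dpci, col6a1 rose at 7 dpci, and col18a1b dipped at 1 dpci.

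col5a1 reached 63.9 to 369 CPM with a median of 157 at 7 dpci, a log2 fold change of 2.06 over uninjured fish (SE 0.127, adjusted p 3.08e-18), and 20 of 21 fish exceeded all uninjured fish. col5a2a reached 13.3 to 67.7 CPM (median 27.2) against 3.49 to 18 CPM (median 9.01), a log2 fold change of 1.63 (SE 0.140, adjusted p 2.76e-13). Among the less abundant fibrillar genes, col11a1b was detected in every fish at 7 dpci, at 1.19 to 19.9 CPM with a median of 5.81, and thus above all 21 uninjured fish (adjusted p 4.91e-13). Its pooled level was 6.64 CPM (519 counts). Its paralog col11a1a rose by 2.91 (SE 0.449, adjusted p 4.64e-06), col5a3a by 1.49 (SE 0.315, adjusted p 0.000965) and col27a1b, a type XXVII gene of thin fibrils, by 1.23 (SE 0.263, adjusted p 0.00114) on the log2 scale. The cartilage-type gene col2a1b had medians of 1.79, 1.37 and 1.67 CPM at the successive stages, with a log2 fold change of 0.04 at 7 dpci (adjusted p 1).

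Type XII stayed high. col12a1a reached 9.27 to 125 CPM (median 41.7) and col12a1b 1.97 to 28.6 CPM (median 9.56) at 7 dpci, log2 fold changes of 3.68 (SE 0.231, adjusted p 3.87e-18) and 4.05 (SE 0.296, adjusted p 8.73e-16) over uninjured fish. Of the 21 fish at 7 dpci, 20 for col12a1a and 19 for col12a1b were above every uninjured fish. Another fibril-associated gene, col16a1, rose by 1.08 (SE 0.254, adjusted p 0.00337). col14a1a was called with an adjusted p of 0.0346 at a median of 0.238 CPM, and 17 of 21 uninjured fish had no count. That call was lost without the 3 krt5-high fish, without NA and TU, and without the 6 libraries with conflicting labels.

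Type VI collagen, which forms beaded microfilaments around cells, gave a later rise. col6a1 (chromosome 11, 33996526 to 34065718, minus strand) ran from 8.59 to 26.1 CPM (median 16.2) in uninjured fish, from 3.78 to 28.6 CPM (median 16.6) at 1 dpci and from 8.84 to 89.5 CPM (median 49.2) at 7 dpci, with 19 of 21 fish above all uninjured fish. col6a2 ran from 14.3 to 54 CPM (median 26.5), from 9.1 to 44.7 CPM (median 23.2) and from 27.5 to 105.2 CPM (median 45.7). col6a3 (ENSDARG00000077139) ran from 13.4 to 38.6 CPM (median 22.7), from 9.8 to 38.4 CPM (median 25.8) and from 18.8 to 96.2 CPM (median 49.96). None of these genes passed the test at 1 dpci, and all were higher at 7 dpci, by 1.45 for col6a1 (SE 0.163, adjusted p 2.33e-09), 0.88 for col6a2 (adjusted p 6.99e-06) and 1.02 for this col6a3 (SE 0.134, adjusted p 1.25e-07). The other col6a3 gene (ENSDARG00000095915) and col6a4a rose by 1.17 (adjusted p 0.000283) and 1.00 (adjusted p 0.00145). Of these, col6a2 and col6a4a lay under the 2-fold limit and are not among the 18 genes.

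The basement membrane genes changed less. col4a2 (chromosome 9, 8761099 to 8882901, plus strand), which encodes the α2 chain of the ubiquitous type IV network, ran from 6.04 to 32.4 CPM (median 14.5) in uninjured fish, from 7.41 to 49 CPM (median 20.1) at 1 dpci and from 20.1 to 56.8 CPM (median 30.1) at 7 dpci. It was the single member of this class higher by more than 2-fold at 7 dpci, with a log2 fold change of 1.16 (SE 0.151, adjusted p 9.41e-08). col4a1, which encodes the α1 chain, was higher by 0.59 (adjusted p 0.00309) and col18a1b by 0.85 (adjusted p 0.0228), both under the 2-fold limit. col18a1a ran from 0 to 6.42 CPM (median 2.58) in uninjured fish, from 0.98 to 7.88 CPM (median 3.71) at 1 dpci and from 0.713 to 10.2 CPM (median 3.67) at 7 dpci, and did not pass the test. col4a5, col4a6 and col15a1b had medians of 0.443 CPM or less at every stage and were not called. The call of col18a1b was lost without NA and TU (adjusted p 0.0579), without the 6 libraries with conflicting labels (0.0703) and without WIK fish 61 at 7 dpci (0.0667).

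Between 1 and 7 dpci, 12 collagen genes rose by more than 2-fold and none fell, whereas 2.66% of all genes tested rose and 4.78% fell. col18a1b changed most among the members with counts in every group. It ran from 0.734 to 5.6 CPM with a median of 3.99 at 7 dpci, and 18 of 21 fish were above every fish at 1 dpci, a log2 fold change of 3.04 (SE 0.300, adjusted p 1.39e-11). col11a1b (adjusted p 6.42e-11) and col10a1a (adjusted p 0.000764) also rose, but had no counts in some groups, so that no fitted fold change is given. The others were col11a1a, col6a1, col1a2, col1a1a, col1a1b, col6a4a, col6a2, col16a1 and col6a3 (ENSDARG00000095915), by 1.05 to 1.53 on the log2 scale. Since col10a1a passed the filter only through fish at 7 dpci, its call adds no support to the count of 12. Without the fold limit 20 rose, where all genes gave 10.5% higher and 12.4% lower. With the RUVg factor in the model, 4 collagen genes were called.

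Of the 22 called by adjusted p in any of these comparisons, 10 were higher at both 1 and 7 dpci, 11 at 7 dpci alone and 1, col18a1b, was lower at 1 dpci and higher at 7 dpci. On the log2 scale, col5a3a was higher by 1.57 at 1 dpci and by 1.49 at 7 dpci, so its rise was no smaller at 1 dpci. For the genes that follow, the rise at 1 dpci was smaller. The rise at 1 dpci was 83.4% of that at 7 dpci for col12a1b, 73.9% for col12a1a, 62.6% for col5a1 and 62.4% for col5a2a. It was 47.5% for col11a1a, 41.7% for col27a1b, 38.3% for col1a1a, 34.2% for col1a1b and 32.2% for col1a2. For col6a3 (ENSDARG00000077139) it was 7.54%, and for col6a1 and col6a2 the value at 1 dpci was slightly below that of uninjured fish. These comparisons share their samples, and the differences between members in timing were not tested.

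By class, over the members with counts in every group, the 9 fibrillar genes had a median log2 fold change of 0.84 at 1 dpci and 1.96 at 7 dpci. The 5 basement membrane genes had medians of 0.18 and 0.76, and the 8 other genes had medians of 0.00 and 1.13. Over all genes tested, the medians were 0.07 and 0.03. In all, the collagen genes took a median of 0.0241% of the counts in uninjured fish (0.0121% to 0.0381%), 0.0616% at 1 dpci (0.0341% to 0.106%) and 0.0978% at 7 dpci (0.0376% to 0.204%). As a share of the counts that were not mitochondrial, these medians were 0.077%, 0.159% and 0.26%.

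The summed level of fibroblast and epicardium-derived markers had a higher median at both stages after injury. Over all 8 markers of that list it ran from 59.7 to 235 CPM (median 131) in uninjured fish, from 140 to 463 CPM (median 262) at 1 dpci and from 260 to 1016 CPM (median 432) at 7 dpci, with none of them at 0. Of these 8 markers, 3 were called higher at 1 dpci, 4 at 7 dpci and 3 from 1 to 7 dpci. Over all genes tested, 8.53%, 2.58% and 2.66% were higher in these comparisons. The median log2 fold change of the 8 markers was 0.65, 0.932 and 0.195. The 4 skin epithelium markers had summed medians of 174, 199 and 319 CPM at the successive stages, with 1 called higher at 1 dpci and 0 at 7 dpci. In the 58 libraries not high in krt5, krt4 and krt15 had medians of 62 and 140 CPM, and krt5 and epcam of 0.283 and 0 CPM. The 5 measured smooth muscle and bulbus markers had medians of 71.3, 99.0 and 188 CPM, with 1 called higher at 1 dpci and 1 at 7 dpci. The 4 macrophage markers had medians of 8.04, 62.5 and 24.1 CPM, with 4 called higher at 1 dpci and 1 at 7 dpci. The 6 measured cardiomyocyte markers had medians of 23190, 14840 and 19200 CPM, and the 8 endocardial and endothelial markers 123, 114 and 126 CPM. The part of these changes in the collagen values was not tested. In bulk ventricles, more cells of a type and more mRNA per cell cannot be told apart.

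The next comparisons asked whether strains differed. In uninjured fish, 3 of 40 collagen genes were called as different between any of the 7 strains, with adjusted p below 0.05 (edgeR quasi-likelihood test over 6 contrasts), where 13.1% of all genes did. These were col4a1 (adjusted p 5.84e-09), col12a1a (0.0214) and col12a1b (0.0304). At 1 dpci, 7 of 40 differed, where 11.4% of all genes did. At 7 dpci, 11 of 40 differed, where 13.5% of all genes did, and 6 of the 11 were fibrillar. Without NA and TU, 1 gene differed in uninjured fish, 2 at 1 dpci and 1, col10a1b, at 7 dpci. That call of col10a1b was itself lost without AB fish 24 (adjusted p 0.93), without the 3 krt5-high fish (0.918) and with DESeq2 (0.139). Single libraries also moved these counts, to 1 in uninjured fish without SAT fish 3 or SAT fish 4, to 4 at 1 dpci without NA fish 28, NA fish 30 or TU fish 54, and to 7 at 7 dpci without NA fish 31 or NA fish 34. Of the genes called at 7 dpci, col12a1b was lost without any of 45 single libraries. The fibrillar gene col11a1a was lost without any of 9, with DESeq2 (0.0621) and with the RUVg factor (0.0532).

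At 1 dpci, col12a1b (adjusted p 0.00123), col10a1b (0.00365) and col5a1 (0.00716) had the lowest p. col12a1b was highest in WIK, at 13.1, 16.3 and 21.4 CPM, and in AB, at 7.19, 10.8 and 18.4 CPM. It was low in TU, at 1.07 and 1.65 CPM, and in SAT, at 3.03 and 3.49 CPM, both below all fish of WIK, AB and TL. The lowest fish of this stage belonged to neither TU nor SAT. col5a1 reached 165, 182 and 210 CPM in AB, 49.8, 138 and 173 CPM in KCL, and 48.9 and 61.4 CPM in TU. col1a2 (0.0116), col17a1b (0.0343), col7a1 (0.043) and col1a1a (0.0445) were the remaining genes. With DESeq2, the calls of col10a1b (0.119) and col17a1b (0.992) were lost. That of col10a1b was also lost without TL fish 43 (0.0708), that of col17a1b without the 3 krt5-high fish (0.477), and that of col7a1 without KCL fish 63, 1 of these (0.294). For col17a1b, leaving out any of 9 single libraries ended the call, for col7a1 any of 15 and for col1a1a any of 38. The calls of these genes were also lost with the RUVg factor, without the 6 libraries with conflicting labels and without NA and TU. In these settings col1a1a had adjusted p of 0.0645, 0.0622 and 0.485. Without NA and TU, the calls of col12a1b (adjusted p 0.0704) and col1a2 (0.171) were lost as well.

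At 7 dpci, col4a1 had the lowest p (adjusted p 9.39e-07) and is described further on. The type I and type V genes are taken first. For col1a1a, the fish labelled KCL had 252, 267 and 379 CPM and those labelled NA 39.7, 65.3 and 81.1 CPM. The other fish lay between, at 126, 189 and 278 CPM in AB, 141, 157 and 175 CPM in WIK, 110, 114 and 227 CPM in TL, 98.0, 171 and 174 CPM in SAT, and 63.95, 82.6 and 95.5 CPM in TU. The KCL and NA fish did not overlap, but AB overlapped KCL and TU overlapped NA. The strain mean of KCL was 4.82-fold that of NA (adjusted p of the difference among strains 0.000925), whereas in uninjured fish the highest strain mean of col1a1a was 1.54-fold the lowest.

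By mean level, KCL was also highest and NA lowest for col1a1b (3.79-fold, adjusted p 0.00082), col1a2 (3.86-fold, 0.00222), col5a1 (3.36-fold, 0.000202), col5a2a (3.07-fold, 0.012) and col12a1a (4.17-fold, 0.0268). The call of col12a1a was lost with the RUVg factor (0.0614), without the 6 libraries with conflicting labels (0.0737) and without NA and TU (0.318). Leaving out any of 4 single libraries also ended it, and any of 2 ended that of col5a2a. For col5a1, KCL had 214, 359 and 369 CPM, AB 177, 246 and 315 CPM, TU 88.3, 103 and 111 CPM, and NA 63.9, 96.4 and 120 CPM. For col1a1b, KCL had 254, 312 and 400 CPM, AB 128, 244 and 292 CPM, TU 108, 121 and 127 CPM, and NA 60.1, 85.7 and 109 CPM. In col5a1 and col1a1b, AB overlapped KCL and TU overlapped NA, so these neighbours in the order did not separate. The order between these ends varied among genes, and for col5a2a AB lay below TL, WIK and SAT. By contrast, col4a1 was highest in TU and col10a1b in AB.

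**Figure D3:**
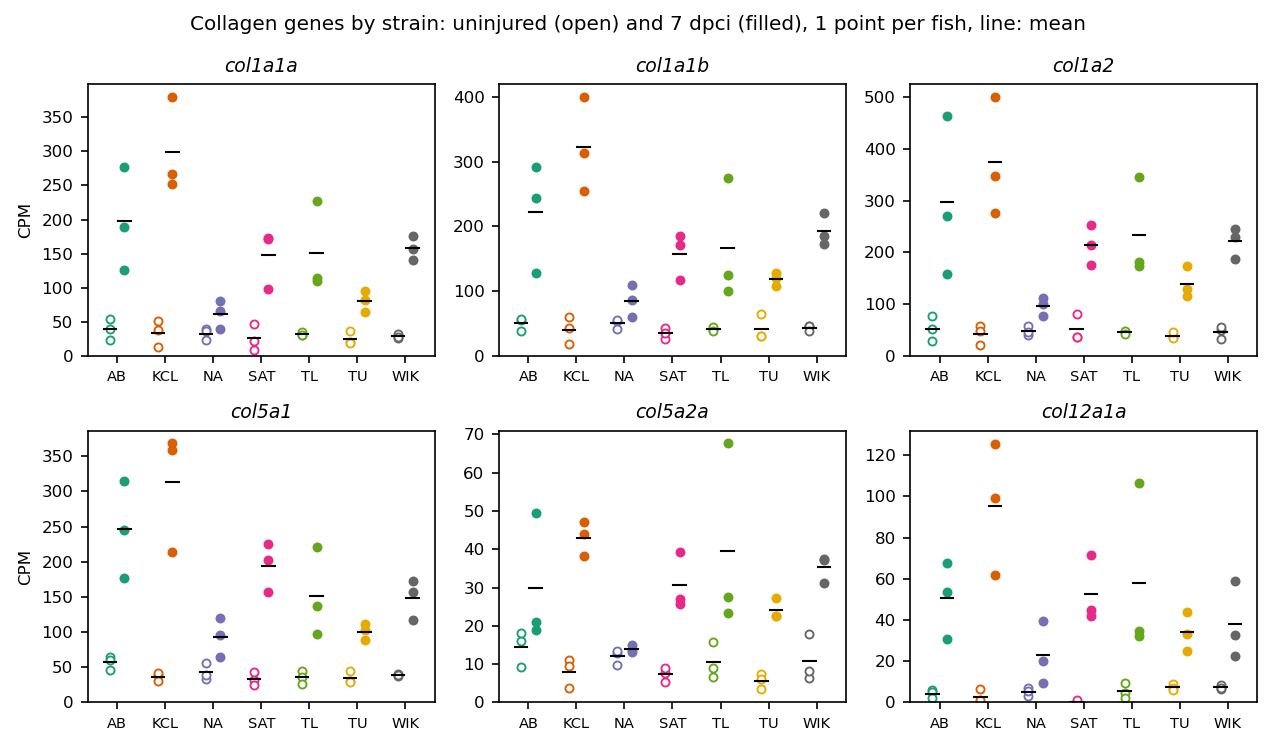
CPM (y axis) of 6 collagen genes by strain (x axis) in uninjured fish (open points) and at 7 dpci (filled points), 1 point per fish with a line at the group mean. At 7 dpci the 3 KCL fish lay at 252 to 379 CPM for col1a1a and the 3 NA fish at 39.7 to 81.1 CPM, whereas in uninjured fish the highest strain mean was 1.54-fold the lowest for col1a1a and 18.4-fold for col12a1a.

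Each strain was then compared with the mean of the other 6 at 7 dpci. In KCL, 5 collagen genes were higher, where 1.28% of all genes were higher. These were col5a3a (log2 fold change 1.63, adjusted p 0.0408), col1a1a (1.28, 0.0054), col12a1a (1.23, 0.0299), col1a1b (1.1, 0.00406) and col5a1 (1.09, 0.00313). The other 6 include NA and TU, and this comparison was not run without them. Without NA and TU, the edgeR test of any difference among strains at 7 dpci no longer called 4 of these genes. Its adjusted p was 0.297 for col1a1a, 0.318 for col12a1a, 0.168 for col1a1b and 0.0778 for col5a1. In the fish labelled NA, 5 were lower, where 1.15% of all genes were lower and 2.55% higher. These were col1a1a (-1.37, 0.0094), col1a2 (-1.28, 0.00587), col5a2a (-1.24, 0.00388), col6a3 ENSDARG00000077139 (-1.19, 0.00606) and col1a1b (-1.14, 0.00684). In TU, col4a1 alone was higher (background 2.13%), and in AB, 3 rare genes were higher (background 1.32%), none of them without the krt5-high fish. None was called in SAT, TL or WIK, where 1.74%, 1.32% and 1.66% of all genes were higher. At an unadjusted p below 0.05 there were 2, 3 and 3 collagen genes, with no share of all genes to set beside them. With DESeq2, 0 were called in AB.

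The summed fibroblast and epicardium-derived markers followed a like order at 7 dpci. Their median was 732 CPM in KCL (592 to 1016), 582 in WIK, 570 in AB, 432 in SAT, 376 in TU, 368 in TL (338 to 884) and 290 in NA (260 to 321). Its part in the strain differences of the collagen genes was not tested. As a share of counts that were not mitochondrial, the collagen genes took 0.523% ± 0.146 (SD, n = 3) in KCL and 0.135% ± 0.0317 (SD, n = 3) in NA. As a share of all counts, they took 0.168% ± 0.0377 (SD, n = 3) in KCL and 0.0561% ± 0.0173 (SD, n = 3) in NA.

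Whether the change itself differed among strains was tested as an interaction. From uninjured to 7 dpci, the change of 2 collagen genes differed among strains, col4a1 (adjusted p 2.38e-06) and col12a1a (0.00614), where 3.54% of all genes did. The count became 4 without AB fish 27 at 7 dpci or the uninjured KCL fish 2, 5 without TL fish 45 at 7 dpci and 6 without KCL fish 63 at 1 dpci. From 1 to 7 dpci, none did by edgeR and 1 did by DESeq2, with 4 at an unadjusted p below 0.05 and 0.0947% of all genes called. The type I genes, which differed among strains at 7 dpci, did not pass the test of a difference in their change, with col1a1b at an adjusted p of 0.0553. At an unadjusted p below 0.05, 13 of 40 members and 7 of 12 fibrillar members differed in this change, but by adjusted p 0 fibrillar members did. No share of all genes is given for the unadjusted counts of either change, so whether collagen genes stood out in them was not tested.

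Within single strains, the genes called at 7 dpci against uninjured fish were largely those of types I, V, XI and XII. The counts of higher collagen genes were 12 in KCL (1.03% of all genes were higher), 9 in TU (1.61%), 8 each in AB (0.414%), SAT (0.201%), TL (0.16%) and WIK (0.491%), and 3 in NA (1.68%). In NA these were col12a1a, col12a1b and col5a1, and col4a1 was lower, where 1.08% of all genes were. At 1 dpci the counts were 5 in TL (0.876% of all genes), 4 each in AB (3.39%), KCL (3.02%), SAT (1.89%) and WIK (3.3%), 3 in NA (5.88%) and 0 in TU (0.651%). In TU, with 2 fish at that stage, 6 collagen genes had an unadjusted p below 0.05, again with no share of all genes beside them. col12a1a and col5a1 were among the genes higher at 1 dpci in all 6 strains with a call, and col18a1b was called lower in AB and WIK, where 1.52% and 1.66% of all genes were. In NA col4a1 was lower at 1 dpci as well, where 3.69% of all genes were. The NA and TU counts, and their shares over all genes, rest on the uninjured libraries that correlated best with the other strain. For these labels the comparisons may therefore set fish of different strains against each other.

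col12a1a started from different levels. In uninjured SAT fish, 2 had no count and the other had 1.19 CPM, whereas at 7 dpci the SAT fish had 41.7, 44.7 and 71.3 CPM. In uninjured KCL fish the levels were 0, 1.34 and 6.45 CPM, and at 7 dpci 61.7, 99.1 and 125 CPM. Uninjured WIK fish had 6.54, 7.06 and 8.34 CPM and uninjured TU fish 6.17, 6.76 and 8.79 CPM, all above every uninjured SAT fish. The fitted rise to 7 dpci was largest in SAT, at 6.98 on the log2 scale, and in KCL, at 5.04, and lay between 2.13 and 3.59 in the other strains. The interaction was lost without NA and TU (adjusted p 0.335) and without the 6 libraries with conflicting labels (0.0772).

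col12a1b showed the same low start in uninjured SAT fish, at 0, 0 and 0.597 CPM, but was as low in TU, at 0, 0 and 0.238 CPM. Uninjured KCL fish had 0.807, 1.01 and 4.21 CPM and uninjured TL fish 0, 2.35 and 2.58 CPM. At 7 dpci the SAT fish had 14.3, 19.8 and 26.6 CPM and the NA fish 1.97, 2.38 and 8.20 CPM, and these did not overlap. The call of col12a1b among strains at 7 dpci was lost without any of 45 single libraries.

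col4a1 (chromosome 9, 8634229 to 8670158, minus strand) showed a pattern of its own. The uninjured fish labelled NA had 39.6, 50.4 and 97.8 CPM and the 7 dpci fish labelled TU 56.6, 65.7 and 93.2 CPM. The 2 TU fish at 1 dpci had 17.0 and 44.2 CPM, and every other fish of the series lay between 4.66 and 26.4 CPM. Uninjured TU fish had 10.02, 10.5 and 15.7 CPM and NA fish at 7 dpci 12.3, 17.1 and 21.04 CPM. Thus in NA the gene was lower at 7 dpci than in uninjured fish, by 1.89 on the log2 scale, and in TU it was higher.

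These groups include the uninjured libraries that correlated best with the other strain. Without NA and TU, col4a1 no longer differed among strains in uninjured fish (adjusted p 0.738), at 7 dpci (0.967) or in its change (0.968). Its neighbour col4a2, which encodes the partner chain, did not follow it. In uninjured NA and 7 dpci TU fish together, the ratio of col4a1 to col4a2 had a median of 2.97 (1.84 to 4.46, n = 6), and in 1 dpci TU fish it was 0.709 and 3.19. In the other 53 libraries it had a median of 0.661 (0.292 to 1.56), so the 6 libraries lay above all of these.

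**Figure D4:**
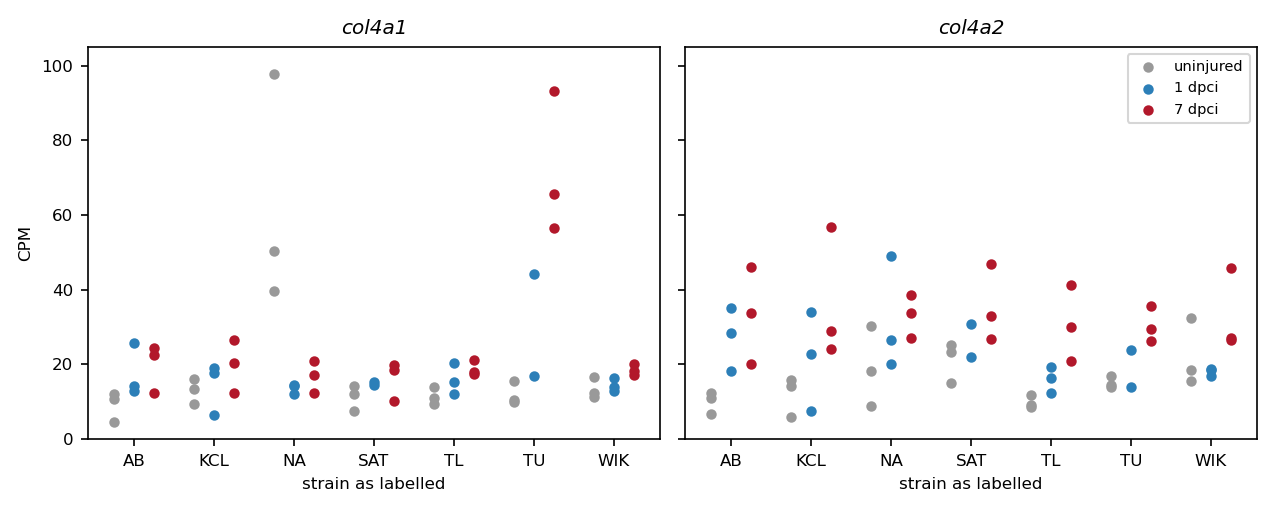
CPM (y axis) of col4a1 and col4a2 in each fish by strain (x axis) and stage (colours). For col4a1 the uninjured fish labelled NA (39.6 to 97.8 CPM) and the 7 dpci fish labelled TU (56.6 to 93.2 CPM) stood above the other strains, whereas for col4a2 all strains overlapped.

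Chains that assemble into one trimer were compared as ratios. The ratio of col1a1a to col1a2 had medians of 0.671, 0.697 and 0.685 in uninjured, 1 dpci and 7 dpci fish, and the ratio of col5a2a to col5a1 had medians of 0.224, 0.236 and 0.194. The ratio of col6a1 to col6a2 went from 0.573 to 0.67 and 0.84, with overlapping ranges. After removal of the group means, the strongest correlations over the 61 fish were those of col1a1a with col1a2 (r = 0.887), col1a1b with col1a2 (r = 0.85), col1a1a with col1a1b (r = 0.803) and col1a2 with col6a2 (r = 0.778). Over all 231 pairs of the 22 members with counts in every group, the median was 0.255 and the lowest value was -0.271, of col18a1b with col27a1b. The points share their libraries and depths, and these values are a description.

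Several rare members rested on few fish. col17a1b, a transmembrane collagen of hemidesmosomes, had 154 counts in the series, of which 88.3% came from the 3 krt5-high fish, at 19, 75 and 42 counts. For col7a1, which encodes the anchoring fibrils below epithelia, the share was 77% of 74 counts. Another epithelial gene, epcam, stood at 12.7, 48.5 and 4.74 CPM in these fish and at no more than 0.722 CPM in the others, whereas krt4 and krt15 were found in every library. Collagens VII and XVII were thus found mainly where krt5 and epcam were, and the part of other tissue in these libraries was not tested.

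**Figure D5:**
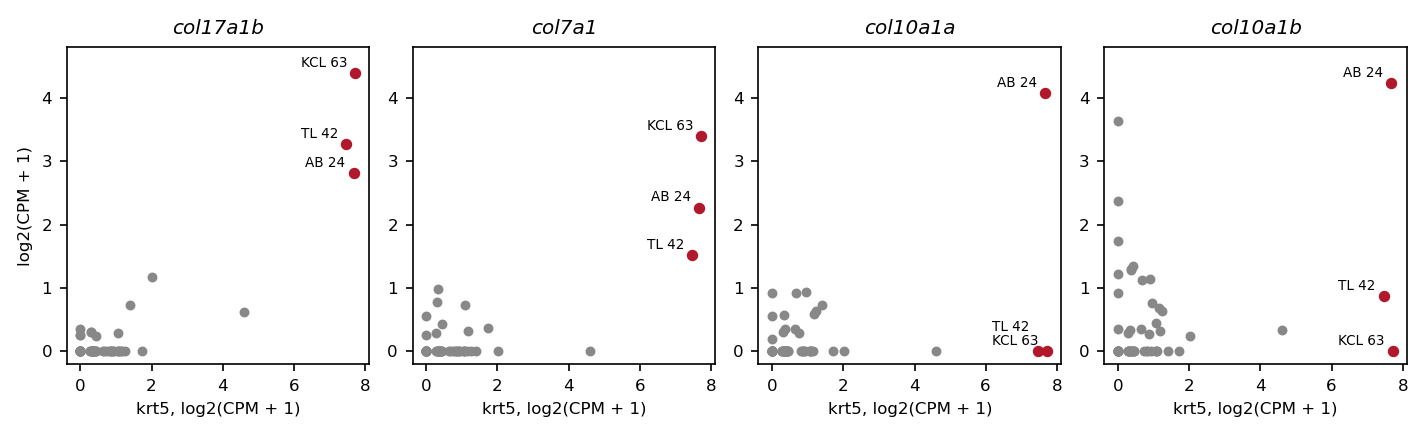
Level of col17a1b, col7a1, col10a1a and col10a1b as log2(CPM + 1) (y axis) against krt5 as log2(CPM + 1) (x axis) in each of the 61 fish, with the 3 krt5-high fish in red. These fish held 88.3% of the col17a1b counts and 77% of the col7a1 counts.

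The type X genes, known from the growth zones of bone and in fish from bone-forming cells, had another distribution. col10a1a had no count in 21 uninjured fish, 1 count at 1 dpci and 74 counts in 13 of 21 fish at 7 dpci, of which 50 were in AB fish 24. The pooled 7 dpci level of 0.947 CPM was at least 22.3-fold higher than the limit set by 3 counts over the uninjured group. Without AB fish 24 it was 0.32 CPM, at least 7.52-fold higher, from 24 counts in 12 of 20 fish. The edgeR call (adjusted p 0.00358) was lost with DESeq2 (0.626). It was also lost without TU fish 52 or WIK fish 61 at 7 dpci. Each was the only fish of its group with a count, so without it that group had none and the test could not decide. col10a1b had 225 counts, 70 of them in 1 TL fish at 1 dpci and 56 in AB fish 24. At 1 dpci the TL fish had 0.825, 4.16 and 11.4 CPM and the WIK fish 1.202, 1.33 and 1.55 CPM, all above every KCL, NA and TU fish of that stage. Of the 4 cartilage and bone markers, sp7 and bglap were not in the normalised table and were not analysed. In the 3 krt5-high fish, acana was at 0, 1.06 and 0 CPM and sox9a at 0, 0 and 0.206 CPM.

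col8a1b, a network-forming collagen of vessel walls, was found in 3 of 21 uninjured fish, 5 of 19 at 1 dpci and 17 of 21 at 7 dpci, with 6, 11 and 47 counts. It was not called, but 9 of the 21 groups had no count and the fit gave no usable standard error. The test thus could not decide whether it changed. In all, 18 of the 40 members were not called in any comparison of stages, and 3 of these, col18a1a, col2a1b and col4a6, had counts in every group. For most of the others, groups without counts left the fit with no usable standard error. Their lack of a call does not show an unchanged level. The genes col5a2b, col7a1, col7a1l, col9a1a, col11a2, col17a1b, col22a1, col28a1a and col28a1b had a median of 0 CPM at every stage. The remaining ones, col4a5, col8a1b, col9a2, col10a1b, col15a1b and col19a1, had medians of at most 0.56 CPM.

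Genes that process collagen were examined beside the collagens, from a list of 69 genes of which 52 were measured. At 1 dpci 10 were higher and none lower, at 7 dpci 13 were higher and none lower, and between 1 and 7 dpci 8 rose and 1 fell, each at more than 2-fold. Over all genes tested, 8.53% were higher and 2.36% lower at 1 dpci, 2.58% and 0.13% at 7 dpci, and 2.66% and 4.78% from 1 to 7 dpci. Of 19 enzymes and chaperones that act in the endoplasmic reticulum, 5 were higher at each stage. serpinh1a, a gene of the collagen chaperone Hsp47, rose by 1.32 (adjusted p 1.43e-10) at 1 dpci and 1.00 (1.2e-06) at 7 dpci. Its paralog serpinh1b was more abundant, with medians of 10.98, 15.92 and 26.41 CPM at the successive stages. It did not pass the test at 1 dpci (log2 fold change 0.434, adjusted p 0.0678) and was higher by 1.099 (9.02e-06) at 7 dpci. fkbp10b, a prolyl isomerase that acts on procollagen, rose by 1.57 (0.000848) and 1.50 (0.00923). The lysyl hydroxylase gene plod3 was higher by 1.11 at 1 dpci (1.02e-07), and at 7 dpci its log2 fold change was 0.23 (0.547), whereas plod2 rose by 1.24 (1.87e-05) at 7 dpci and had 0.50 (0.0745) at 1 dpci. The prolyl 4-hydroxylase subunit gene p4hb was higher by 0.65 at 1 dpci (1.11e-07) and had a log2 fold change of 0.04 at 7 dpci (adjusted p 1). Of the other subunit genes p4ha1a, p4ha1b, p4ha2 and p4ha3, none passed the test at 1 dpci. At 7 dpci only p4ha3 did (0.0299), at a median of 0.238 CPM.

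At 7 dpci, 2 of 7 genes of propeptide processing, 2 of 6 of cross-linking, 2 of 5 of fibril binding and 1 of 11 of receptors and uptake were higher by more than 2-fold. pcolce2b, an enhancer of procollagen cleavage, rose by 1.51 (adjusted p 4.72e-07) at 1 dpci and 1.73 (1.08e-07) at 7 dpci. bmp1a, the procollagen C-proteinase, was higher by 0.947 (6.96e-05) at 1 dpci, under the 2-fold limit, and by 1.32 (6e-07) at 7 dpci. Of the lysyl oxidases, which cross-link fibrils, loxa rose by 1.93 (0.000618) and 2.61 (0.000167), loxl2b by 1.75 (8.52e-07) at 7 dpci, and loxl2a by 1.87 (9.21e-05) at 1 dpci and then fell by 1.11 (0.0241) from 1 to 7 dpci. These genes had low levels, with medians of 0.213, 0.619 and 1.69 CPM for loxa at the successive stages. For loxl2b they were 1.43, 1.93 and 5.24 CPM, and for loxl2a 0.353, 1.33 and 0.89 CPM. The most abundant, loxl1, had medians of 18.8, 20.4 and 25.2 CPM. Its log2 fold change was -0.02 at 1 dpci, which did not pass the test, and 0.53 (0.00598) at 7 dpci, under the 2-fold limit. Among proteins that bind fibrils, sparc rose by 1.67 (1.12e-14) at 7 dpci. dcn, which encodes decorin, had medians of 28.9, 22.2 and 63.4 CPM at the successive stages, with a log2 fold change of -0.48 (0.00196) at 1 dpci and 0.89 (1.68e-07) at 7 dpci, both under 2-fold. lum, which encodes lumican, had medians of 0.643, 0 and 3.56 CPM. mrc2, an uptake receptor for collagen, rose by 2.02 (0.00598) at 7 dpci.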

How the data were processed

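mRNA 3′ libraries (Lexogen QuantSeq, FWD) were made from total RNA of single ventricles. The authors trimmed reads with Trim Galore 0.6.4 and aligned and counted them with STAR 2.7.6a against GRCz11 with Ensembl release 104, and the strand setting of the counting is not given in the sources used here. The first deposited table holds unnormalised counts for 32520 genes. The second deposited table holds the authors' normalised log2 values of 16890 genes. It served here to define the members and the filter of at least 1 CPM in at least 1 library, not for tests. In each of the 61 libraries the deposited log2 value rose with the count and all values lay between 1.83 and 4.46, so they are not on the scale of log2 CPM.

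Total counts per library were 2943684 to 5538019 (median 3843819), of which 991472 to 2146167 were not mitochondrial. Library sizes in the fit were the summed counts of the 16890 genes that passed the filter, mitochondrial ones included. No entry lacked a gene name. The counts were fitted in R 4.3.3 with edgeR 4.0.16 (TMM, trended dispersion, quasi-likelihood F-test), with 1 mean for each of the 21 groups of strain and stage. P-values were adjusted by Benjamini-Hochberg over 16890 genes, and a gene was called at more than 2-fold and an adjusted p below 0.05, or by adjusted p alone for tests over several contrasts. The labels do not say whether fish of a group came from separate tanks or days, so p-values measure the spread between these fish. Other settings were DESeq2 1.42.0, 1 RUVg factor (8445 control genes), no filter, no mitochondrial genes, the 2 stages compared alone, and libraries or strains left out. An additive model, a fit of uninjured fish without a block, and a fit without the 3 fish high in krt5 were chosen after seeing the data. The main edgeR fit was tested on simulated data. Tables and figures were made in Python 3.11.15.

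The members and lists were chosen with earlier results of these data known. Values by fish are given for the 3 most abundant members of each class, the 3 members with the largest called rise and fall in each comparison of stages, and the 3 with the lowest p in each test among strains. Sequences of the members were not analysed here.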

Additional observations from a re-analysis of the deposited data

Results flagged for a closer look

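The change of col4a1 from uninjured to 7 dpci differed among strains (edgeR quasi-likelihood interaction test, adjusted p 2.38e-06). It was lower at 7 dpci in fish labelled NA and higher in fish labelled TU, and the difference was lost without NA and TU (adjusted p 0.968). The uninjured libraries of both labels correlated best with the other strain at 7 dpci.

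The change of col12a1a from uninjured to 7 dpci also differed among strains (same test, adjusted p 0.00614). It was largest in SAT and KCL, whose uninjured fish included 3 with no count, and the difference was lost without NA and TU (adjusted p 0.335).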

How the results depend on the processing

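Counts of collagen genes called were compared between settings. Relative to 6 higher and 1 lower at 1 dpci, the RUVg factor gave 1 and 0, and adjusted p alone gave 10 higher. For 12 higher from 1 to 7 dpci, the RUVg factor gave 4 and adjusted p alone 20. That factor followed the stages (77% of its variance), and with it the change of col4a1 from 1 to 7 dpci turned to -0.33 (adjusted p 0.894, from 0.41). The 18 higher at 7 dpci became 16 to 22 under the other settings. For differences among strains, 3 in uninjured fish became 7 with no filter and 1 without NA and TU or without the 6 libraries with conflicting labels. The 7 at 1 dpci became 4 with RUVg, 14 with no filter and 2 without NA and TU. The 11 at 7 dpci became 17 with no filter and 1 without NA and TU. A change from 1 to 7 dpci that differed among strains was found for 0 genes by edgeR, 1 by DESeq2, 1 without mitochondrial genes and 6 with no filter. The change from uninjured to 7 dpci differed for 2 genes, and for 7 by DESeq2, 5 without mitochondrial genes, 10 with no filter, 1 without the 6 conflicting libraries, 0 without NA and TU, and 5 without the 3 fish high in krt5. Without NA and TU the fibrillar median log2 fold change was 1.08 at 1 dpci (from 0.84) and 2.29 at 7 dpci (from 1.96).

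With each library left out in turn, the counts ran from 4 to 6 higher and 1 to 1 lower at 1 dpci, 16 to 20 higher and 0 to 0 lower at 7 dpci, and 11 to 13 higher and 0 to 0 lower from 1 to 7 dpci. Differences among strains ran from 1 to 4 in uninjured fish, 4 to 9 at 1 dpci and 7 to 13 at 7 dpci, and differences in the change from 0 to 1 (1 to 7 dpci) and 2 to 6 (uninjured to 7 dpci).

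With the fish number as a replicate block over the 21 uninjured libraries, 5 genes differed among strains, and 3 without the block. Fish numbers did not pair the samples (33 pairs with a shared number, median r 0.0104). Of single calls, the RUVg factor kept 43, lost 32 and reversed 1, leaving out NA and TU kept 52 and lost 24, DESeq2 kept 68 and lost 7, and leaving out mitochondrial genes kept all 76. Depth limited what could be called for genes under 1 CPM.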
